A study of Mus musculus with 10 samples.

Results

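The genes described here encode the machinery that makes newly built collagen chains fit for use and that takes collagen back into cells: the prolyl 4-hydroxylase alpha subunits P4ha1, P4ha2 and P4ha3, the lysyl hydroxylases Plod1, Plod2 and Plod3, the chaperone Serpinh1, the procollagen-processing genes Bmp1 and Pcolce, and the uptake receptor Mrc2. They were taken by gene name, and all 10 were present among the 46603 genes of the deposited count table. RNA had been sequenced from 2 fractions of macrophages sorted from 4T1 tumours, a mouse mammary carcinoma model. PoEMs, the podoplanin-expressing macrophages, were viable cells positive for CD11B, F4/80 and PDPN, and non-PoEMs were viable cells positive for CD11B and F4/80 but negative for PDPN. Each of tumours 1, 2, 4, 5 and 6 supplied both fractions, 10 libraries in all and 5 of each kind. No treatment or genotype separates the fractions, and the labels give neither the mouse strain and age nor whether every tumour grew in a separate mouse; p-values therefore measure the spread among these tumours only. The study asked what PDPN-positive macrophages contribute to lymphatic vessel growth and matrix remodelling.

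Collagen chains are modified inside the endoplasmic reticulum before they fold. Prolyl 4-hydroxylase, built from a catalytic alpha subunit and the beta subunit P4HB, adds the hydroxyl groups that keep the triple helix stable at body temperature, and lysyl hydroxylases prepare lysines for sugar attachment and for later cross-links. Both enzyme families use oxygen, iron, 2-oxoglutarate and ascorbate. Folded procollagen is held by HSP47, the product of Serpinh1, and is trimmed at its C-terminal end by BMP1 with the help of the PCOLCE protein. MRC2, also called Endo180 or uPARAP, binds collagen at the cell surface and carries it to lysosomes. Fibroblasts are the best known site of this machinery, and P4ha1, P4ha2 and Plod2 are known targets of hypoxia-inducible factor (HIF).

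The libraries held between 12597829 and 15406722 counts, so that 1 read corresponded to 0.0652 to 0.0782 CPM (counts scaled to library size and between libraries with TMM). Pdpn mRNA was 190 to 248 CPM in PoEMs and 10.96 to 29.1 CPM in non-PoEMs, as the sort would have it. All 12 macrophage markers looked at, among them Csf1r, Adgre1 and Cd68, were expressed in both fractions, at a summed 22929 to 27322 CPM in PoEMs and 22608 to 25718 CPM in non-PoEMs, with 1 called higher and 2 lower. Fibroblast markers were not equal between the fractions: 14 of 17 tested were higher in PoEMs and none lower (also at an unadjusted p under 0.05, and by DESeq2), with a median log2 fold change of 1.60. Their summed level was 519.6 to 670.3 CPM in PoEMs and 398 to 487 CPM in non-PoEMs, of which Gsn, a gene for an actin-severing protein, made up 83.1% in PoEMs and 88.0% in non-PoEMs. Without Gsn, a reading added after the values were seen, the sum was 76.1 to 123 CPM in PoEMs and 43.3 to 68.2 CPM in non-PoEMs, and the fibroblast marker Tcf21 had no count in any library. Of the fibroblast markers called higher, Lum, Meg3, Fbln1, Mfap5 and Cxcl12 passed the filter on low counts through their PoEM libraries alone. Pdgfra, Dcn and Dpt, as low as 0.366, 0.293 and 0.156 CPM in non-PoEMs, also needed their PoEM libraries to pass. None of 8 tested epithelial markers was called by edgeR or DESeq2 (2 were lower at an unadjusted p under 0.05, and with the tumour as a block 1 was higher and 2 were lower). Of 4 tested blood endothelial markers, Vwf was called higher in PoEMs (0.72 ± 0.16 SE on the log2 scale, adjusted p = 0.0114 by edgeR) and none lower. With the tumour as a block, 2 of these 4 were higher and none was lower. Markers of several other leukocytes were lower in PoEMs: all 4 tested eosinophil markers (summed 4.30 to 12.6 CPM in PoEMs and 57.2 to 141 CPM in non-PoEMs), 2 of 6 monocyte markers (457 to 682 CPM in PoEMs and 960.1 to 1505 CPM in non-PoEMs) and 6 of 7 neutrophil markers (297 to 636 CPM in PoEMs and 402 to 605 CPM in non-PoEMs). The seventh, Mmp9, had a large part of that sum and was higher in PoEMs of 5 of 5 tumours, at 350.4 ± 128 CPM in PoEMs and 185 ± 83.4 CPM in non-PoEMs (SD, n = 5 each); it was called in the blocked fit only (adjusted p = 0.125 by edgeR, and 6.93e-06 with the block). Il5ra, an eosinophil marker with 4 reads over all PoEM libraries, passed the filter on low counts through its non-PoEM libraries alone. The eosinophil marker Ccr3 and the neutrophil marker Cxcr2, as low as 0.533 and 0.492 CPM in PoEMs, also needed their non-PoEM libraries to pass. More cells of a type and more RNA per cell cannot be told apart in such bulk libraries, and the part of these other cell types in the results below was not tested.

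Of the 10 genes, 5 were higher in PoEMs (P4ha1, P4ha2, Plod1, Serpinh1 and Mrc2), none was lower, 4 were not called (Plod2, Plod3, Bmp1 and Pcolce), and P4ha3 had too few counts for the test across genes. The threshold was a p under 0.05 from edgeR's quasi-likelihood test after Benjamini-Hochberg adjustment; at an unadjusted p under 0.05, and with DESeq2 or limma-voom, 5 were likewise higher and none lower. Over all 13595 genes tested, 6.83% were called higher in PoEMs and 6.77% lower. A fit that takes the tumour as a block called 13.8% higher and 14.3% lower, with the same calls among the 10 genes. By edgeR with that block, the adjusted p was 5.10e-08 for P4ha2, 5.57e-06 for Serpinh1 and 1.62e-06 for Mrc2. For Plod3, Bmp1 and Pcolce the same fit gave 0.807, 0.433 and 0.169. An unadjusted p under 0.05 by edgeR, in either direction, was found for 3843 of the 13595 genes. Among the same 13595 genes, DESeq2 called 1119 higher and 1212 lower, and limma-voom called 945 higher and 879 lower. List counts at these thresholds are to be read beside these numbers. The median log2 fold change of the 9 tested genes was 0.50, beside 0.01 over all tested genes, which is given as a description. Mrc2 passed the filter on low counts through its PoEM libraries alone, so its call is not independent of the filter. The level did not overlap between the fractions for P4ha2, Serpinh1 and Mrc2 among the tested genes, or for P4ha3, and 5.38% of all tested genes had such a gap with PoEMs higher (5.13% with PoEMs lower). A higher CPM in PoEMs of all 5 tumours, given for several genes below, was found in 17.4% of all tested genes.

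**Figure D1:**
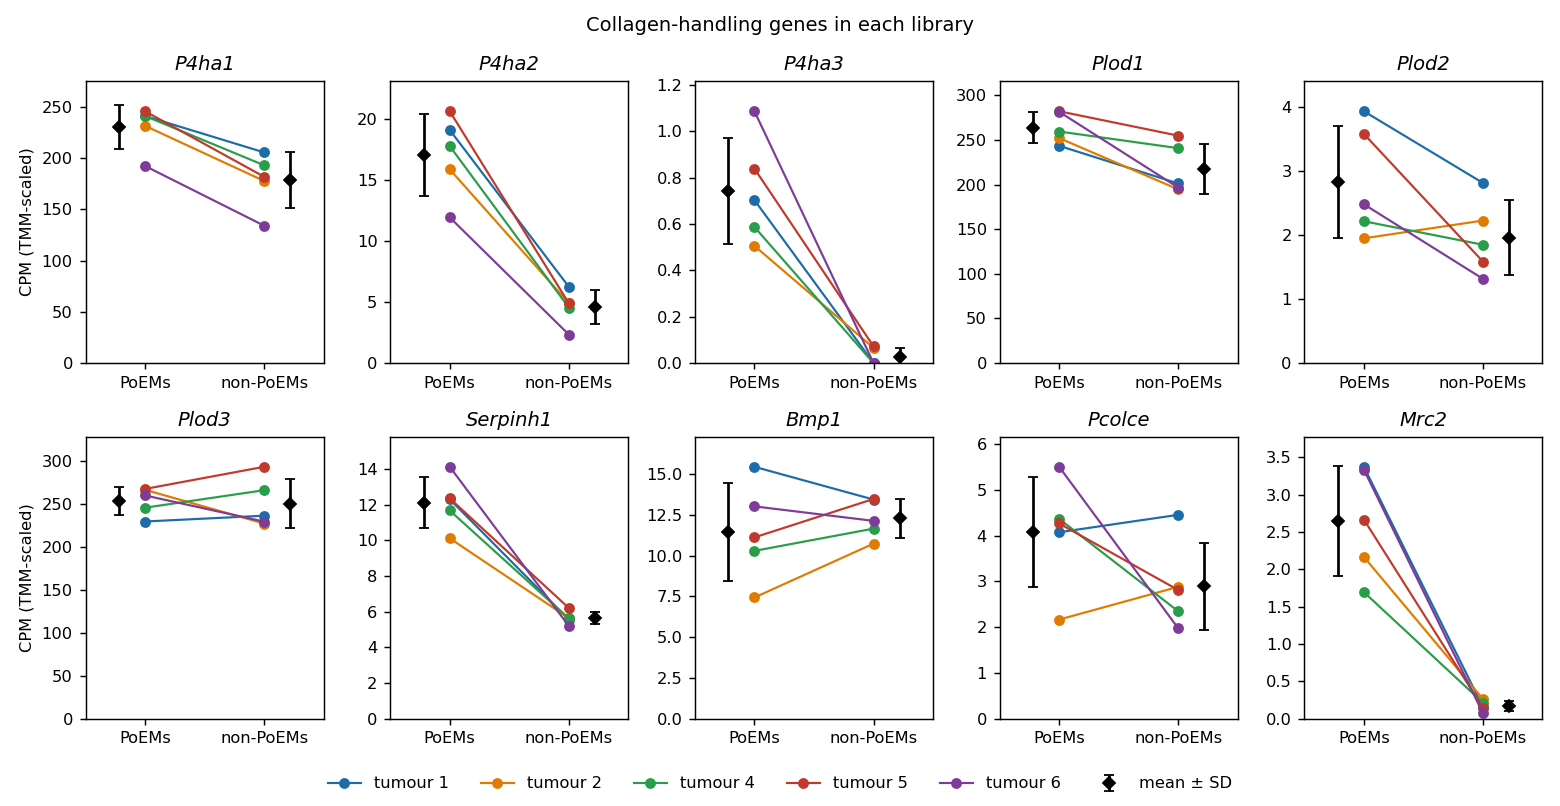
Level of each of the 10 genes in every library, in TMM-scaled CPM on linear axes from 0; each line joins the PoEM and non-PoEM library of 1 tumour, and diamonds show the mean and SD of 5 libraries. P4ha2, P4ha3, Serpinh1 and Mrc2 separate the fractions, P4ha1 and Plod1 are higher in PoEMs of all 5 tumours with overlapping ranges, and Plod3 and Bmp1 lines cross.

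Promoter sequence is shown for P4ha1, P4ha2 and Serpinh1, whose mRNA was higher in PoEMs, and for P4ha3, because P4ha1 and P4ha2 are HIF targets and the letters of the HIF core motif can be looked for. Plod1, also called higher, is not printed; its window held 1 match, 20 bases before the start. Each run is the 250 bases before the RefSeq transcription start on GRCm38.p6, and capitals mark ACGTG or GCGTG and their reverse complements CACGT and CACGC. The windows lie at chr10:59323046-59323295 (plus strand), chr11:54100674-54100923 (plus strand), chr7:100285270-100285519 (plus strand) and chr7:99353240-99353489 (minus strand). The P4ha2 window lies inside the gene as GENCODE draws it, downstream of an earlier start.
P4ha1: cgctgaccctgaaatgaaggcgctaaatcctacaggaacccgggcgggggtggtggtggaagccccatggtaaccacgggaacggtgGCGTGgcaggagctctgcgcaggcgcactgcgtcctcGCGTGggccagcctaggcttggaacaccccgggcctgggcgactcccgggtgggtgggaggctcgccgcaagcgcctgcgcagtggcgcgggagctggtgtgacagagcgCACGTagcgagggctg
P4ha2: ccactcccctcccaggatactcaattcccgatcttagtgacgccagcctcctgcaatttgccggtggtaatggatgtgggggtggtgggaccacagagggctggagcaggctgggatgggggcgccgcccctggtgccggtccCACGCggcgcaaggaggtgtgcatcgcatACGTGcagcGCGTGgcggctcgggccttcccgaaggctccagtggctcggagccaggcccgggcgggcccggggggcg
P4ha3: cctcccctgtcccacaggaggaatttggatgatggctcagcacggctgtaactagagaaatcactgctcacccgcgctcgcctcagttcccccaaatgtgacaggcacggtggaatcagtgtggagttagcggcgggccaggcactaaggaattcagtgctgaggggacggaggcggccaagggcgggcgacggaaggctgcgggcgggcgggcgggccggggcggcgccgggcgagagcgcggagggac
Serpinh1: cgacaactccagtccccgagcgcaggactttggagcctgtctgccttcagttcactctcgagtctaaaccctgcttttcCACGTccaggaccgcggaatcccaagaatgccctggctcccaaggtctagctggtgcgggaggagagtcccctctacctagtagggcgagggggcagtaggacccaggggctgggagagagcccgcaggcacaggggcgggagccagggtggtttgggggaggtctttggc
P4ha1 held 3 matches, whose first letters lay 163, 126 and 16 bases before the start, and P4ha2 held 3, at 107, 78 and 69 bases. Serpinh1 held 1 match at 171 bases, and these letters are not in the P4ha3 window. None of the matches in these windows overlapped another. Over 32851 such windows of 27025 genes, 38.6% held at least 1 match and 16.6% held ACGTG on either strand. Of the 7 genes with a window in the table, 6 had a match, and Plod3, which was not called, had 4. A match describes letters and shows no binding.

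The prolyl 4-hydroxylase subunits were higher in PoEMs, by unequal amounts. P4ha1 (ENSMUSG00000019916, chromosome 10, 59323296 to 59373304 of GRCm38, plus strand), the main catalytic subunit in most cells, measured 241, 232, 241, 246 and 193 CPM in PoEMs of tumours 1, 2, 4, 5 and 6, against 206, 178, 193, 182 and 134 CPM in non-PoEMs. PoEMs were higher in each of the 5 tumours, by 1.17-fold (tumour 1) to 1.43-fold (tumour 6), and the ranges overlapped, tumour 6 being the lowest in both fractions. The means were 231 ± 21.9 CPM in PoEMs and 179 ± 27.1 CPM in non-PoEMs (SD, n = 5 each); on the log2 scale this is 0.37 ± 0.11 higher (SE, adjusted p = 0.0364 by edgeR). It no longer passed when any of 7 single libraries was dropped (PoEMs of tumours 1, 2, 4 or 5, non-PoEMs of tumours 2, 4 or 5), with an adjusted p of up to 0.0951, or when any tumour but tumour 6 was dropped (up to 0.135). With the tumour as a block the log2 fold change was 0.38 ± 0.05 (edgeR adjusted p = 7.64e-05), and the adjusted p was at most 0.00116 on leaving out any tumour.

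P4ha2 (ENSMUSG00000018906, chromosome 11, 54100095 to 54131665, plus strand), the second catalytic subunit, showed the larger difference. Its level was 19.1, 15.9, 17.8, 20.6 and 11.9 CPM in PoEMs of tumours 1, 2, 4, 5 and 6, against 6.25, 4.91, 4.55, 4.90 and 2.34 CPM in non-PoEMs. The lowest PoEM library lay well above the highest non-PoEM library, and tumour 6 was again the lowest in both fractions. On average it was 17.1 ± 3.36 CPM in PoEMs and 4.59 ± 1.42 CPM in non-PoEMs (SD, n = 5 each), 3.72-fold higher (1.90 ± 0.21 SE on the log2 scale, adjusted p = 0.000175 by edgeR). Within tumours PoEMs were 3.06-fold to 5.10-fold higher, and 86 of the 13595 tested genes had a larger fitted increase.

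P4ha3 (ENSMUSG00000051048, chromosome 7, 100285520 to 100319699, plus strand), the third and least abundant subunit gene, had 10, 7, 9, 11 and 14 reads in PoEMs of tumours 1, 2, 4, 5 and 6, against 0, 1, 0, 1 and 0 reads in non-PoEMs. That is 0.744 ± 0.229 CPM in PoEMs and 0.0275 ± 0.0378 CPM in non-PoEMs (SD, n = 5 each), and every PoEM library was above every non-PoEM library. The 51 and 2 reads give a ratio of 25.6, with an exact 95% counting interval of 6.73 to 217. By exact permutation of the 10 libraries the two-sided p was 0.00794, the smallest this design can give, and by exact permutation within tumours it was 0.0625, again the smallest possible. Without the filter on low counts, edgeR put the difference at 4.32 ± 0.65 on the log2 scale (SE, adjusted p = 0.000137 over 23973 genes), a value that depends on the prior count.

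Within the family, P4ha1 held a smaller share of the reads in PoEMs than in non-PoEMs of each of the 5 tumours. P4ha2 took 5.81% to 7.72% of all P4ha reads in PoEMs and 1.71% to 2.95% in non-PoEMs, with no overlap (6.82% ± 0.751 in PoEMs and 2.45% ± 0.474 in non-PoEMs, SD, n = 5 each). P4ha1 held 92.9% ± 0.695 in PoEMs and 97.5% ± 0.482 in non-PoEMs. P4ha3 stayed at or below 0.528% in every library. These are shares of reads, not corrected for transcript length.

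**Figure D2:**
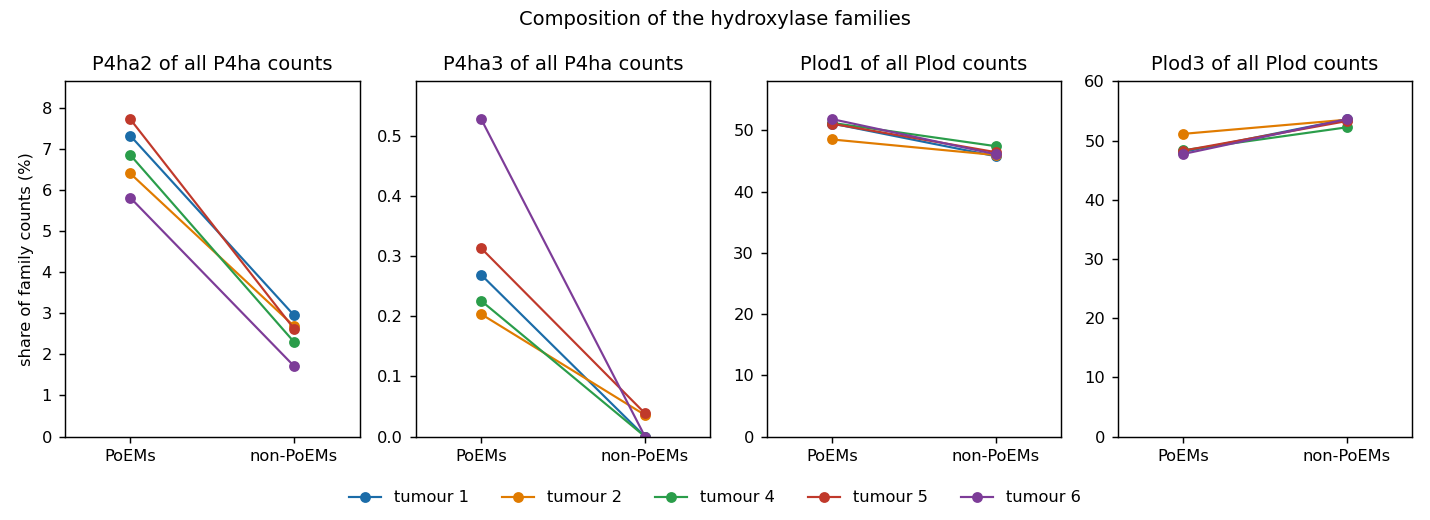
Share of family reads (%, linear axes from 0) taken by P4ha2 and P4ha3 among the P4ha genes and by Plod1 and Plod3 among the Plod genes, with lines joining the PoEM and non-PoEM library of each tumour. P4ha2 lies at 5.81% to 7.72% in PoEMs and at 1.71% to 2.95% in non-PoEMs, and in all 5 tumours Plod1 has the larger share in PoEMs and Plod3 the larger share in non-PoEMs.

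Of the lysyl hydroxylases, Plod1 alone was called. Plod1 (ENSMUSG00000019055, chromosome 4, 147909753 to 147936767, minus strand), which acts on lysines of the helical part of collagen, had 244, 252, 259.6, 282 and 282 CPM in PoEMs of tumours 1, 2, 4, 5 and 6, against 201, 195, 241, 255 and 197 CPM in non-PoEMs. PoEMs were higher in each of the 5 tumours, by 1.08-fold (tumour 4) to 1.43-fold (tumour 6), and the ranges overlapped. The averages of 264 ± 17.5 CPM in PoEMs and 218 ± 28.1 CPM in non-PoEMs (SD, n = 5 each) stood 0.28 ± 0.09 apart as log2 values (SE, adjusted p = 0.0497 by edgeR), at the edge of the threshold. It no longer passed with DESeq2 size factors (adjusted p = 0.0570), without robust dispersions (adjusted p = 0.0518) or when any of 8 single libraries was dropped (all but non-PoEMs of tumours 4 and 5), with an adjusted p of up to 0.128, or when any tumour but tumour 5 was dropped (up to 0.158). With the tumour as a block it was 0.28 ± 0.06 (edgeR adjusted p = 0.00252), and the adjusted p was at most 0.0218 on leaving out any tumour.

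Plod2 (ENSMUSG00000032374, chromosome 9, 92542223 to 92608428, plus strand), whose product hydroxylates lysines in the collagen ends, was scarce. It measured 3.94, 1.95, 2.22, 3.58 and 2.48 CPM in PoEMs of tumours 1, 2, 4, 5 and 6, against 2.81, 2.23, 1.85, 1.59 and 1.32 CPM in non-PoEMs. PoEMs were higher in 4 of 5 tumours, tumour 2 being the exception, and the ranges overlapped. The log2 fold change of 0.53 ± 0.26 (SE) did not pass (edgeR adjusted p = 0.194, and 0.0812 with the tumour as a block). It rested on 18 to 56 reads per library. It passed in 1 alternative, the blocked fit without tumour 2 (adjusted p = 0.0391).

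Plod3 (ENSMUSG00000004846, chromosome 5, 136987019 to 136996648, plus strand), which also carries glycosyltransferase activity, was 229, 266, 245, 267 and 259 CPM in PoEMs of tumours 1, 2, 4, 5 and 6, against 236, 227, 266, 293 and 229 CPM in non-PoEMs. The fractions were intermingled, with PoEMs higher in 2 of 5 tumours. The difference was 0.02 ± 0.08 on the log2 scale (SE, adjusted p by edgeR = 0.909), and the SDs over 5 libraries were 16.1 CPM in PoEMs and 28.5 CPM in non-PoEMs. As a share of Plod reads, Plod1 was at 50.7% ± 1.29 in PoEMs and 46.3% ± 0.65 in non-PoEMs, and Plod3 at 48.7% ± 1.37 in PoEMs and 53.3% ± 0.584 in non-PoEMs. Plod1 had a larger share in PoEMs than in non-PoEMs in 5 of 5 tumours. Exons of Plod3 overlap those of Znhit1, a protein-coding gene on the opposite strand, by 529 bases, those of Plod2 overlap Gm38391, also on the opposite strand, by 346 bases, and no source used here states whether counting used strand.

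The collagen chaperone gene Serpinh1 (ENSMUSG00000070436, chromosome 7, 99345376 to 99353239, minus strand) was higher in PoEMs of all 5 tumours. Its level was 12.3, 10.1, 11.7, 12.3 and 14.1 CPM in PoEMs of tumours 1, 2, 4, 5 and 6, against 5.55, 5.63, 5.62, 6.201 and 5.19 CPM in non-PoEMs. Every PoEM library exceeded every non-PoEM library, and the non-PoEM values were close together. The averages were 12.1 ± 1.44 CPM in PoEMs and 5.64 ± 0.362 CPM in non-PoEMs (SD, n = 5 each), 2.14-fold higher (1.10 ± 0.11 SE on the log2 scale, adjusted p = 3.87e-05 by edgeR). Within tumours the increase was 1.79-fold (tumour 2) to 2.72-fold (tumour 6).

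The procollagen-processing genes did not pass. Bmp1 (ENSMUSG00000022098, chromosome 14, 70474558 to 70520234, minus strand), the procollagen C-proteinase, measured 15.5, 7.44, 10.3, 11.1 and 13.03 CPM in PoEMs of tumours 1, 2, 4, 5 and 6, against 13.4, 10.7, 11.7, 13.5 and 12.1 CPM in non-PoEMs. PoEM libraries spread more widely and on both sides of the non-PoEM values. The difference was -0.10 ± 0.16 on the log2 scale (SE, adjusted p by edgeR = 0.732).

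Pcolce (ENSMUSG00000029718, chromosome 5, 137605103 to 137613784, minus strand), the enhancer of that proteinase, had 4.08, 2.17, 4.37, 4.27 and 5.51 CPM in PoEMs of tumours 1, 2, 4, 5 and 6, against 4.46, 2.88, 2.35, 2.81 and 1.97 CPM in non-PoEMs. PoEMs were higher in tumours 4, 5 and 6 and lower in tumours 1 and 2. The log2 fold change was 0.50 ± 0.26 (SE, adjusted p by edgeR = 0.228). Its exons share 112 bases with Fbxo24 on the same strand and 112 with the antisense gene Gm36266, and its 27 to 71 reads per library are uncertain to that extent.

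The uptake receptor gene Mrc2 (ENSMUSG00000020695, chromosome 11, 105292643 to 105351139, plus strand) had the largest fitted difference of the 9 tested genes. It had 48, 30, 26, 35 and 43 reads in PoEMs of tumours 1, 2, 4, 5 and 6, or 3.37, 2.17, 1.69, 2.67 and 3.34 CPM, against 2, 4, 3, 2 and 1 reads in non-PoEMs, or 0.156, 0.262, 0.213, 0.144 and 0.0731 CPM. The fractions did not come near each other in any tumour. The log2 fold change was 3.87 ± 0.33 (SE, adjusted p by edgeR = 1.67e-05), and 12 of the 13595 tested genes had a larger one. By contrast Mrc1, the related mannose receptor gene that marks many tissue macrophages, was at 2980 ± 1076 CPM in PoEMs and 2594 ± 558 CPM in non-PoEMs (SD, n = 5 each) and was not called (0.20 ± 0.24 SE on the log2 scale, adjusted p = 0.639 by edgeR).

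**Figure D3:**
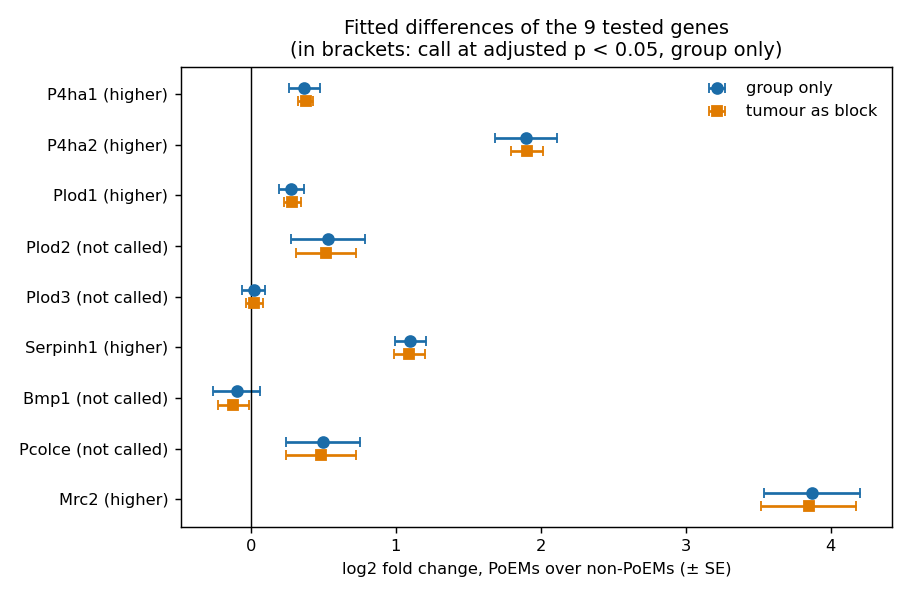
Fitted log2 fold change of PoEMs over non-PoEMs with its SE for the 9 tested genes, from the model with the group alone (circles) and with the tumour as a block (squares); the words in brackets give the call of the first model. Mrc2 (3.87), P4ha2 (1.90) and Serpinh1 (1.10) stand clear of 0, P4ha1 (0.37) and Plod1 (0.28) lie close to it, and the block moved no estimate by as much as its SE.

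Levels of different genes can be set beside each other only per length of transcript. Per kilobase of exon, Plod3 and P4ha1 were the highest in PoEMs, at 56.1 ± 3.56 and 56.0 ± 5.32 CPM per kilobase (SD, n = 5 each), and could not be separated. Plod1 followed at 39.0 ± 2.59 and Serpinh1 at 4.96 ± 0.59 CPM per kilobase. P4ha2 came next at 2.74 ± 0.539, then Bmp1 at 1.29 ± 0.339 and Pcolce at 1.07 ± 0.315 CPM per kilobase, the last pair overlapping. Plod2 (0.525 ± 0.162), Mrc2 (0.397 ± 0.11) and P4ha3 (0.237 ± 0.0729) closed the order, and each overlapped its neighbour. In non-PoEMs Plod3 was highest at 55.3 ± 6.30 CPM per kilobase, ahead of P4ha1 at 43.4 ± 6.59 and Plod1 at 32.2 ± 4.16, which overlapped each other. P4ha2, at 0.736 ± 0.227 CPM per kilobase in non-PoEMs, lay beside Pcolce (0.757 ± 0.248) and below Bmp1 (1.39 ± 0.133). Divided by coding length instead, P4ha1 came first in PoEMs and was level with Plod3 in non-PoEMs (both 107 CPM per kilobase), so the order of P4ha1, Plod1 and Plod3 depends on the length used.

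Tumours were not alike in which genes were high. Among PoEMs, tumour 6 had the lowest P4ha1 and P4ha2 but the highest P4ha3, Serpinh1 and Pcolce. PoEMs of tumour 5 had the highest P4ha1 and P4ha2, and also the highest sum of 26 HIF target genes (9388 CPM, against 7440 to 8474 CPM in PoEMs of the other tumours). The lowest sum in PoEMs was that of tumour 2 (7440 CPM), not of tumour 6 (7596 CPM). Among non-PoEMs, tumour 1 was highest in P4ha1, P4ha2 and the sum (6412 CPM). Tumour 6 was lowest there in both genes (sum 5456 CPM), but tumour 4 had the lowest sum (5076 CPM). PoEMs of tumour 2 were lowest in P4ha3, Plod2, Serpinh1, Bmp1 and Pcolce, and had the lowest sum of 17 collagen chains (569.9 CPM, against 633 to 831 CPM in the other PoEM libraries). Their fibroblast marker sum, mostly Gsn, was the lowest as well (519.6 CPM). Without Gsn, PoEMs of another tumour had the lowest fibroblast sum (76.1 CPM). Such orders over 5 libraries are a description, with no test.

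The collagen chains that these enzymes act on were higher in PoEMs, with 11 of 17 called higher, none lower and a median log2 fold change of 2.81 (13 higher and none lower at an unadjusted p under 0.05 or by DESeq2; 15 higher and 1 lower in the blocked fit). The summed level was 569.9 to 831 CPM in PoEMs and 147 to 282 CPM in non-PoEMs. Col5a3, with 19 reads over all non-PoEM libraries, passed the filter on low counts through its PoEM libraries alone. Col5a2, Col6a2 and Col12a1, as low as 0.640, 0.498 and 0.196 CPM in non-PoEMs, also needed their PoEM libraries to pass. Col1a2, Col5a2, Col6a3 and Col5a1 had log2 fold changes of 4.03, 3.91, 3.79 and 2.81, and Col1a1 and Col3a1 of 3.95 and 4.05. Fibroblast markers moved the same way (14 of 17, above), and their part in these differences was not tested. The fitted increases of P4ha1, P4ha2, Plod1 and Serpinh1 were all smaller than those of Col1a1, Col1a2, Col3a1, Col5a1, Col5a2 and Col6a3, while that of Mrc2 was similar in size. Col5a3, Col6a1, Col6a2 and Col12a1 were above P4ha2 as well. The remaining chains lay below P4ha2 (1.90), among them Col8a1 (1.16), Col14a1 (0.62) and Col4a1 (0.40), of which Col8a1 alone was called. The differences between genes were not tested.

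Among 15 tested partners in the endoplasmic reticulum, 5 were called higher in PoEMs and none lower by edgeR or DESeq2 (median 0.16 on the log2 scale; 7 and 1 at an unadjusted p under 0.05). P4hb, the beta subunit of prolyl 4-hydroxylase, was at 1949 ± 112 CPM in PoEMs and 1354 ± 127 CPM in non-PoEMs (SD, n = 5 each; 0.53 ± 0.08 SE on the log2 scale, adjusted p = 0.000778 by edgeR), with no overlap. Crtap, part of the prolyl 3-hydroxylation complex, rose by 0.36 ± 0.08 (adjusted p = 0.0140 by edgeR). Fkbp10, a prolyl isomerase that works on collagen, was at 1.27 ± 0.503 CPM in PoEMs and 0.133 ± 0.122 CPM in non-PoEMs (log2 fold change 3.20 ± 0.54 SE). With 9 reads over all non-PoEM libraries, Fkbp10 passed the filter on low counts through its PoEM libraries alone. Creb3l1, a transcription factor of secretory cells that drives collagen genes in bone, rose by 1.42 ± 0.26, and Fkbp14, a second isomerase, by 0.89 ± 0.25 (SE). Creb3l1, as low as 0.589 CPM in non-PoEMs, also needed its PoEM libraries to pass the filter. The blocked fit called 8 higher and 1 lower, adding P3h1 (0.24), Colgalt1 (0.17), Hsp90b1 (0.16) and, among those lower, Tmem38b (-0.21).

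The other steps moved in part. Of 5 cross-linking genes, Lox, Loxl1 and Loxl2 were higher, with log2 fold changes of 3.69, 3.34 and 3.28, and Loxl3 was not called (-0.32 ± 0.18 SE, adjusted p = 0.270 by edgeR), but passed as lower in the blocked fit (adjusted p = 0.0260). Over all non-PoEM libraries, Lox, Loxl1 and Loxl2 had 33, 25 and 17 reads. These 3 passed the filter on low counts through their PoEM libraries alone, so their calls are not independent of it. Of 4 tested genes of propeptide processing, Adamts2, the procollagen N-proteinase, was higher, at 3.73 ± 0.854 CPM in PoEMs and 0.516 ± 0.366 CPM in non-PoEMs (edgeR adjusted p = 0.000834). With 37 reads over all non-PoEM libraries, Adamts2 needed its PoEM libraries to pass the filter, so its call is not independent of it. Furin, which activates many proproteins, was higher by 0.58 ± 0.16 (adjusted p = 0.0351 by edgeR), and Pcolce2 (-0.63 ± 0.29) and Adamts14 (-0.11 ± 0.32) were not called. Of 11 tested export genes none was higher by edgeR or DESeq2 (3 at an unadjusted p under 0.05, and Sec24d in the blocked fit, by 0.26), and Sar1a, a GTPase of the vesicle coat, was lower by a small amount (-0.18 ± 0.05 SE, edgeR adjusted p = 0.0463). In the list of collagen receptors and breakdown, 4 of 17 were higher and 2 lower. Mmp2, a gelatinase, rose by 1.85 ± 0.21, Cd36, a scavenger receptor, by 1.27 ± 0.22, and Plau, the urokinase gene, by 0.82 ± 0.15 on the log2 scale. The fourth that rose was Ctsl (0.55 ± 0.15), and the genes that fell were Ctsk, for the collagen-cleaving cathepsin K, at -2.53 ± 0.50, and the integrin gene Itga2 at -1.37 ± 0.31. Itga2, as low as 0.433 CPM in PoEMs, needed its non-PoEM libraries to pass the filter. The blocked fit called 5 higher and 3 lower.

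Genes outside collagen handling that respond to HIF were higher as well, with 20 of 26 called higher, none lower and a median log2 fold change of 0.57 (22 higher and none lower at an unadjusted p under 0.05 or in the blocked fit, 21 by DESeq2). Egln3, Aldoa, Ak4 and Pkm had log2 fold changes of 1.65, 0.72, 1.38 and 0.68. The summed level was 7440 to 9388 CPM in PoEMs and 5076 to 6412 CPM in non-PoEMs. None of 9 tested genes for the supply of ascorbate and iron was called by edgeR or DESeq2 (1 was lower at an unadjusted p under 0.05), the nearest being Tfrc (-0.43 ± 0.18 SE, adjusted p = 0.133 by edgeR, and 0.00666 in the blocked fit) and Slc39a13 (-0.14 ± 0.07, adjusted p = 0.199). Of 12 tested TGF-beta and matrix regulators 3 were higher and none lower, among them Ctgf (1.81 ± 0.29) and Ltbp3 (0.48 ± 0.12), and Tgfb3 did not pass (0.67 ± 0.26 SE, adjusted p = 0.127 by edgeR) unless the tumour was a block (adjusted p = 0.000988). The blocked fit called 5 of them higher and 1 lower, as many as passed an unadjusted p under 0.05, and DESeq2 called 4 higher and none lower. Ctgf, as low as 0.393 CPM in non-PoEMs, needed its PoEM libraries to pass the filter on low counts.

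**Figure D4:**
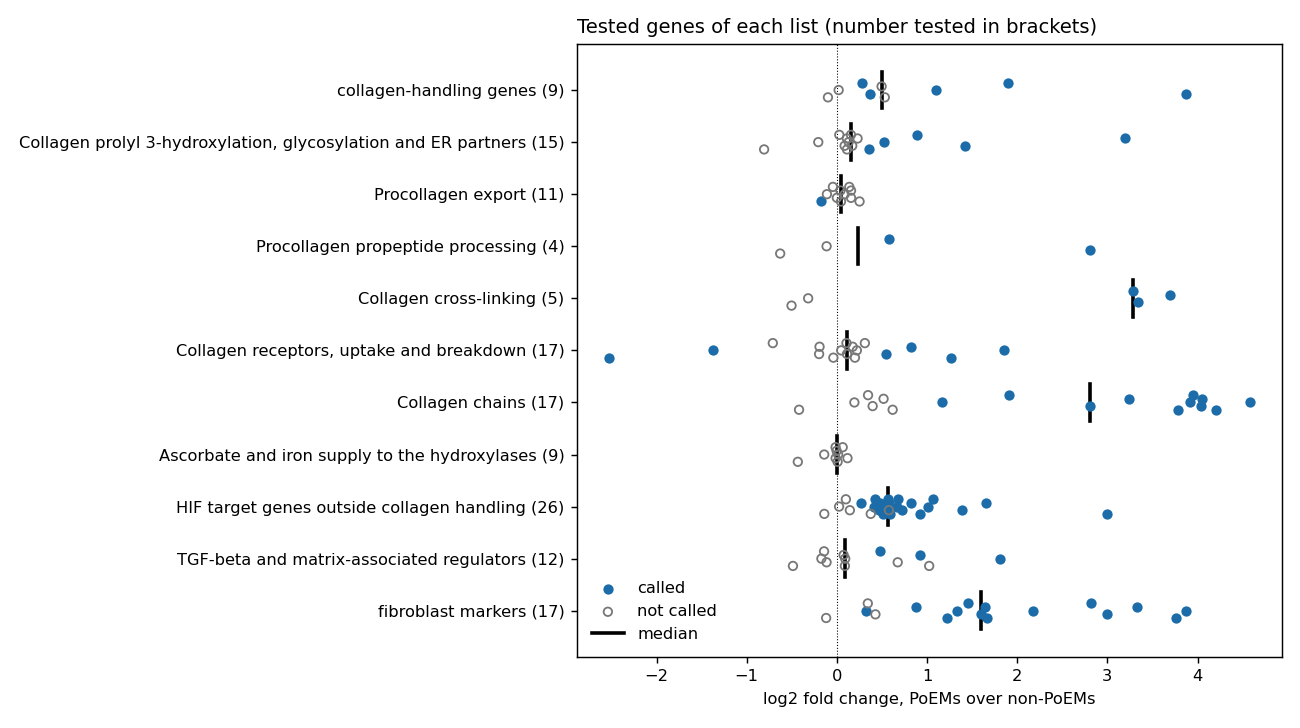
Fitted log2 fold change of PoEMs over non-PoEMs for each tested gene of the lists (filled, called at an adjusted p under 0.05; open, not called; bar, median of the list), with the 9 tested collagen-handling genes in the top row. Cross-linking genes and collagen chains have the highest medians (3.28 and 2.81), HIF targets lie mostly to the right of 0 (median 0.57), and export genes and genes of ascorbate and iron supply lie around 0; the bottom row shows fibroblast markers (median 1.60). Among the called genes, Mrc2, Fkbp10, Lox, Loxl1, Loxl2, Col5a3, Lum, Meg3, Fbln1, Mfap5 and Cxcl12 passed the filter on low counts through their PoEM libraries alone. Adamts2, Creb3l1, Ctgf, Col5a2, Col6a2, Col12a1, Pdgfra, Dcn and Dpt also needed their PoEM libraries to pass, and Itga2 needed its non-PoEM libraries.

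The genes with the most similar profile were sought by the root mean square distance of centred log2 CPM over the 10 libraries. For P4ha1 they were Zfp395, Fntb and Pdk1 (0.06, 0.10 and 0.11 log2 units), and for P4ha2 Eno2, Tnfrsf9 and Egln3 (0.25, 0.30 and 0.34). Serpinh1 was nearest to Tnfrsf23, Rnf128 and Pls3 (0.15, 0.17 and 0.19), and Plod2 to Aldoc, Kif21b and Fam162a (0.20, 0.26 and 0.26). Plod1 was nearest to Pon3, Cd68 and Vezt (0.04, 0.07 and 0.07), Plod3 to Zdhhc24, Slc37a2 and Creb3 (0.06, 0.06 and 0.07), Bmp1 to Rilpl2, Mrip-ps and Krt18 (0.14, 0.15 and 0.15), and Pcolce to Gdpd5, Bach2os and Hspg2 (0.27, 0.31 and 0.31). The neighbours of Mrc2 were Bgn, Tnc and Pdpn itself (0.40, 0.51 and 0.56). The points share their libraries and depth, and the distances are a description.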

How the data were processed

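RNA of sorted tumour macrophages was pre-amplified with SMART-Seq, per the labels' protocols. The authors deposited 1 table of raw counts per gene, and the submitters' processing notes list featureCounts 1.5.3, STAR 2.5.2b, Bowtie2 2.3.3.1 and cutadapt 1.15. No source used here states their settings, the genome build, or the treatment of strand and multi-mapping reads. Counts are reads without molecular identifiers, so intervals cover counting error only.

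From those counts, edgeR 4.0.16 (R 4.3.3, limma 3.58.1) was run on 13595 genes kept by filterByExpr (minimum count 10, minimum total 15), with TMM scaling, robust quasi-likelihood fits, the group as the only term and adjustment over all tested genes. The SE is the log2 fold change divided by the square root of F. Same-numbered libraries come from the same tumour, and their deviations from the group means correlated at 0.28 to 0.65 over 9647 genes, so a fit with the tumour as a block was run beside it. Alternatives included DESeq2 1.42.0. The procedure was tested on simulated data. Positions and exon lengths come from GENCODE M21 and promoters from RefSeq (GRCm38.p6), for 7 of 10 genes.

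Named were the 10 genes, up to 4 genes per list by lowest p (2 where none passed), Pdpn, Col1a1, Col1a2, Col3a1 and the 3 nearest profiles among genes whose mean log2 CPM reached 3. Mrc1, Fkbp14, P3h1, Colgalt1, Hsp90b1, Tmem38b, Ctsl, Itga2, Gsn, Mmp9, Tcf21 and the markers named were added after their values were seen. The genes and lists were chosen with earlier results of these data known.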

Additional observations from a re-analysis of the deposited data

Results flagged for a closer look

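P4ha1 in PoEMs of tumour 6 measured 193 CPM, apart from the 232 to 246 CPM of the other PoEM libraries; the gap to the nearest library was large against the range of the group (Dixon's test, critical value 0.71 for 5 samples). The non-PoEM library of tumour 6 was also the lowest of its fraction, at 134 CPM. It was the only flag among 20 groups examined (10 genes in 2 fractions), and chance flags about 1 in 20.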

How the results depend on the processing

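P4ha2, Serpinh1 and Mrc2 were called higher under all alternatives run. Of the 9 genes tested in the main fit, the number called higher was 5, ranged from 3 to 6 with a library or tumour left out, and was 4 with DESeq2 size factors or without robust dispersions; none was called lower. The genes that dropped out were P4ha1 and Plod1, and Plod2 was gained in the blocked fit without tumour 2. P4ha3, which is outside this count, passed as higher without the filter on low counts (adjusted p = 0.000137 by edgeR). The tumour as a block changed no call among these genes. Over all genes, 929 were called higher and 920 lower, with the block 1880 and 1950, and DESeq2 with the block gave 1445 lower. Leaving out libraries or tumours, with or without the block, gave 437 to 1925 higher and 482 to 2016 lower (437 to 1047 and 482 to 1026 without the block). Without the block, dropping PoEMs of tumour 4 gave 617 higher and 588 lower, non-PoEMs of tumour 2 gave 576 lower, and tumours 2, 4 and 5 gave 514, 437 and 595 higher and 503, 482 and 494 lower; these fits have fewer samples. The block without tumours 1, 4, 5 and 6 gave 1505, 1447, 1398 and 1925 higher and 1692, 1677, 1564 and 2016 lower. For P4ha3 the exact p was 0.0625 when libraries were permuted within pairs, with the same difference of 0.716 CPM. The sign of 2 uncalled genes changed on leaving out libraries: Plod3 ranged from -0.0326 to 0.0815 on the log2 scale (-0.0283 and -0.0154 in the blocked fit without tumour 2 or 6), and Bmp1 from -0.232 to 0.0223, the highest being without PoEMs of tumour 2. The cause of these changes was not tested. The fits that kept the block and left out a tumour, and the sum without Gsn, were chosen after seeing the data. Plod2 and Pcolce rest on 18 to 56 and 27 to 71 reads per library, and Mrc2 and P4ha3 on fewer than 5 in each non-PoEM library.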
